A study of Homo sapiens with 16 samples.

Results

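Condensins are ring-shaped ATPase complexes that fold chromatin into compact mitotic chromosomes. Both vertebrate complexes share the SMC2 and SMC4 subunits. Condensin I adds the kleisin NCAPH, which bridges the SMC heads, and the HEAT-repeat subunits NCAPD2 and NCAPG, and it reaches the chromosomes after the nuclear envelope breaks down, whereas condensin II adds NCAPH2, NCAPD3 and NCAPG2, lies in the nucleus through interphase and starts compaction in prophase. The 8 genes described here are these subunits, taken as a listed set, out of 31496 genes in the table and 19836 genes tested. All 8 passed the filter on low counts.

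The genes lie on 8 chromosomes (GRCh38, GENCODE 29, from the start to the end of the gene). SMC2 is at chr9:104094260-104141417 and SMC4 at chr3:160399274-160434962, both on the plus strand. Of condensin I, NCAPD2 is at chr12:6493356-6531955, NCAPG at chr4:17810902-17844862 and NCAPH at chr2:96335787-96373845, all on the plus strand. Of condensin II, NCAPH2 is at chr22:50508216-50523472 on the plus strand, and NCAPD3 (chr11:134150119-134225454) and NCAPG2 (chr7:158631311-158704829) are on the minus strand. NORAD is at chr20:36045622-36050960 on the minus strand.

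The study asked how gene expression and splicing change in cells depleted of the long noncoding RNA NORAD. Polyadenylated RNA of HCT116, an established human colon cancer cell line, was sequenced in 16 strand-specific libraries. Wild-type HCT116 cells were compared with HCT116 cells labelled as NORAD knockdown at 24 h (2 and 2 libraries), 48 h (3 and 3) and 96 h (3 and 3). Knockdown used CRISPRi, where an inactive Cas9 guided to a promoter holds transcription down, and was switched on with doxycycline at 0.5 µg/ml. The labels carry the same treatment text for every sample and do not say whether wild-type cells received the drug, whether the knockdown cells were a clone, or whether replicates were separate cultures. The p-values therefore measure how far these libraries vary, and that variation may be technical only.

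Library totals lay between 28391784 and 51853876 estimated counts. The epithelial genes EPCAM (193 to 313 CPM, counts scaled to library size) and KRT8 (1587 to 2861 CPM) were high in every library, while the intestinal markers VIL1, CDX1 and LGALS4 stayed at or below 0.772 CPM. Of the 4 endothelial markers PECAM1 was at 0 in all 16 libraries. CDH5, VWF and KDR were above 0 in every library and reached 1.81, 1.28 and 1.31 CPM. The 4 summed to at most 3.35 CPM in any library. Of the leukocyte markers PTPRC did not exceed 0.264 CPM and LYZ, the highest, 0.501 CPM. The 9 epithelial markers summed to 6167 to 6788 CPM in libraries labelled knockdown and 7454 to 7963 CPM in wild type at 24 h, 4065 to 4896 and 6579 to 6877 CPM at 48 h, and 5410 to 5705 and 4621 to 5082 CPM at 96 h. The 5 fibroblast markers, nearly all COL1A1 with LUM at 0 in 15 of 16 libraries, summed to 77.1 to 78.9 and 56.0 to 70.5 CPM at 24 h, 61.9 to 80.6 and 34.0 to 35.0 CPM at 48 h, and 43.9 to 48.6 and 38.9 to 48.9 CPM at 96 h. The part of these markers in the results was not tested. Fewer cells in a phase of the cycle and less RNA per cell cannot be told apart in bulk RNA.

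At 24 h NORAD itself had 179 and 201 CPM in wild type, and the libraries labelled knockdown had 229.7 and 188 CPM, so the groups overlapped. Its log2 fold change there was 0.14 (SE 0.117, adjusted p = 0.523, edgeR's quasi-likelihood test). At 48 h wild type had 156, 155 and 162 CPM and knockdown 21.8, 18.1 and 24.8 CPM, a log2 fold change of -2.88 (SE 0.105, adjusted p = 1.27e-13). At 96 h wild type had 181, 184 and 183 CPM and knockdown 79.9, 72.7 and 66.1 CPM, a log2 fold change of -1.33 (SE 0.0978, adjusted p = 5.25e-08). The target was thus low in every knockdown library at 48 h and 96 h but not at 24 h, so the 24 h samples are called the libraries labelled knockdown throughout.

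Promoter windows were searched as a description. All 8 subunit genes were lower in libraries labelled knockdown at 24 h and 96 h, while their signs differed at 48 h. RefSeq windows (GRCh38.p14, 250 bases before to 50 after a start site) were given for 7 of the 8 genes, in 10 windows; NCAPH2 had none. The letters searched, on either strand, were CCAAT (bound by NF-Y), TTTGAA (the core of the cell cycle genes homology region, CHR) and TTTGGCG or TTCCCGC (E2F), and no match overlapped another. TTTGAA was found in 6 of the 10 windows, each of another gene, against 15.2% of all 35116 windows. CCAAT was found in 3 of the 10 (34.6% of all windows) and an E2F word in 2 (8.27%). A match describes letters in the window, not a bound site. The 3 windows printed here, with every match in capitals, are those of NCAPG, which had the largest fall at 96 h, NCAPD2, which held the most CCAAT words, and NCAPD3, the only subunit with all 3 kinds of word.
NCAPG (chr4:17810729-17811028, plus strand): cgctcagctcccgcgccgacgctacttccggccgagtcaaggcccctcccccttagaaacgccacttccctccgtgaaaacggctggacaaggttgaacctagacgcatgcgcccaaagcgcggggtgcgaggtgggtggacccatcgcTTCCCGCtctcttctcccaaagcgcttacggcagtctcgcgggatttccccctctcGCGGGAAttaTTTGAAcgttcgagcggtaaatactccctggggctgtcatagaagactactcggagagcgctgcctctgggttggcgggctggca
NCAPD2 (chr12:6493852-6494151, plus strand): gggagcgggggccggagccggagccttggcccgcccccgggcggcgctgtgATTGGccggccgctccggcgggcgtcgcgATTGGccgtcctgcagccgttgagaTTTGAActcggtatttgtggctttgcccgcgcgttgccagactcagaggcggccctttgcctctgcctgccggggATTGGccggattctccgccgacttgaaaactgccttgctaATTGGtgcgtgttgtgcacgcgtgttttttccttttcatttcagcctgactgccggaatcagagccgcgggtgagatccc
NCAPD3 (chr11:134223918-134224217, minus strand): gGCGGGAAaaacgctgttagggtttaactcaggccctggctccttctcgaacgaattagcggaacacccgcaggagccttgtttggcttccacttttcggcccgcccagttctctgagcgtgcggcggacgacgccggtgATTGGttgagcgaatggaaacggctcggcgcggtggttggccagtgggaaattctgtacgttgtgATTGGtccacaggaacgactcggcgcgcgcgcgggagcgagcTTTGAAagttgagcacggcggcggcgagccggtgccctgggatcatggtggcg

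The NCAPG window held TTTGAA beginning 35 bases before the start site and E2F words beginning 101 and 45 bases before it, and transcripts starting inside it carried 99.7% of NCAPG counts. The NCAPD2 window held 4 CCAAT words, all on the minus strand, and TTTGAA beginning 145 bases before the start site; 3.26% of all windows held at least 3 CCAAT words. Transcripts that start inside that window carried only 9.39% of NCAPD2 counts. The NCAPD3 window held 2 CCAAT words, 1 E2F word and TTTGAA beginning 3 bases before the start site, with 93.7% of counts from transcripts starting inside it. SMC2 and SMC4 had 2 windows each, of which 1 held TTTGAA alone and 1 held no match. Transcripts starting inside the windows with TTTGAA carried 75.2% of SMC2 counts and 46.1% of SMC4 counts. The NCAPG2 window held TTTGAA alone, beginning 35 bases after the start site, and the NCAPH window a single CCAAT.

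In wild-type cells the subunits differed in level per transcript length. At 48 h NCAPH2 was highest at 80.1 ± 4.54 TPM (abundance per transcript length, SD, n = 3) and NCAPH next at 55.2 ± 2.19 TPM, then SMC4 at 45.8 ± 2.11 TPM. NCAPD2 (34.8 ± 3.33 TPM) and NCAPG (32.6 ± 0.754 TPM) overlapped, as did NCAPD3 (26.4 ± 1.54 TPM) and NCAPG2 (23.5 ± 2.52 TPM) within their SDs, and SMC2 was lowest at 7.78 ± 0.889 TPM. NCAPH2 was also highest at 24 h (70.9 ± 0.525 TPM, SD, n = 2) and 96 h (38.6 ± 1.55 TPM, SD, n = 3). With all transcripts counted, NCAPH held its place at 48 h only. At 24 h it stood at 40.2 ± 0.592 TPM (SD, n = 2), below the mean of SMC4 (46.9 ± 5.09 TPM, SD, n = 2). At 96 h it stood at 26.0 ± 1.10 TPM (SD, n = 3) against 32.7 ± 2.33 TPM (SD, n = 3) for SMC4. From protein_coding transcripts alone NCAPH stood above SMC4 at both times. The means were 39.9 against 27.9 TPM at 24 h and 25.5 against 19.9 TPM at 96 h. The order in the middle also depends on which transcripts are counted. At 48 h, from protein_coding transcripts alone, SMC4 stood at 23.1 TPM and NCAPG at 17.7 TPM. Much of both genes' counts was assigned to transcripts of other classes.

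Wild-type levels changed with time in culture. The mitochondrial share of counts moved over the same times, from 4.89% to 5.05% at 24 h to 10.4% to 11.1% at 48 h and 15.5% to 16.6% at 96 h, and its part in the result was not tested. From 24 h to 48 h all 8 subunits had a positive log2 change and 6 passed the test as higher, where 22.5% of all tested genes did. NCAPH rose from 63.5 and 67.0 CPM to 115, 117 and 111 CPM, a log2 change of 0.81 (SE 0.111, adjusted p = 4.63e-06). SMC4 changed by 0.59 (SE 0.120, adjusted p = 4.88e-04) and NCAPH2 by 0.55 (SE 0.0783, adjusted p = 6.70e-06), while NCAPG (0.06, adjusted p = 0.609) and NCAPG2 (0.27, adjusted p = 0.118) did not pass. The count was 4 under total-count and under upper-quartile scaling, where SMC2 and NCAPD2 did not pass. It was 5 under abundance-dependent scaling and from protein_coding transcripts alone. Of all genes 8729, 8922, 8986 and 8236 passed in these settings, in that order, 4921, 4976, 4335 and 4098 of them as lower. Without replicate 1 of wild type at 24 h the count was 3. The share of all tested genes that passed as higher without that library is not given here.

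From 48 h to 96 h all 8 subunits fell in wild type, where 22.7% of all tested genes passed as lower, and the median log2 change was -0.74 against 0.00 over all genes. The kleisins fell most. NCAPH2 went from 157, 155 and 144 CPM to 65.1, 61.1 and 63.3 CPM, a log2 change of -1.27 (SE 0.0698, adjusted p = 1.56e-11), and NCAPH from 115, 117 and 111 CPM to 50.5, 48.5 and 51.5 CPM, a change of -1.19 (SE 0.0975, adjusted p = 3.01e-09). NCAPD3, a HEAT-repeat subunit of condensin II, changed least, by -0.44 (SE 0.107, adjusted p = 0.00201).

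At 24 h every subunit was lower in the libraries labelled knockdown than in wild type. All 8 passed the test as lower, against 12.4% of all tested genes, with log2 fold changes from -0.65 to -0.42 and a median of -0.52 against -0.02 over all genes. In all 8 genes both of these libraries lay below both wild-type libraries, as they did in 32.9% of tested genes.

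Among the shared ATPases, SMC4 had 93.2 and 94.2 CPM in wild type and 57.5 and 61.6 CPM in the libraries labelled knockdown, a log2 fold change of -0.65 (SE 0.131, adjusted p = 0.00163). SMC2 had 33.0 and 34.0 CPM against 21.7 and 23.7 CPM, a change of -0.56 (SE 0.125, adjusted p = 0.00329). For both genes the groups were well apart relative to the gap between replicates.

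Of the condensin I subunits, NCAPG had 113 and 124 CPM in wild type and 78.2 and 78.3 CPM in the libraries labelled knockdown (log2 fold change -0.60, SE 0.0985, adjusted p = 2.53e-04). NCAPD2 had 138 and 128 CPM against 94.0 and 90.0 CPM (-0.53, SE 0.109, adjusted p = 0.00167). NCAPH had 63.5 and 67.0 CPM against 45.8 and 45.7 CPM (-0.51, SE 0.120, adjusted p = 0.00471). The 3 genes of this complex stood at 65.9% to 70.1% of their wild-type mean.

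Of the condensin II subunits, NCAPH2 had 105 and 102 CPM in wild type and 72.2 and 83.0 CPM in the libraries labelled knockdown (log2 fold change -0.42, SE 0.0851, adjusted p = 0.00166). NCAPD3 had 77.7 and 87.8 CPM against 59.8 and 59.5 CPM (-0.47, SE 0.133, adjusted p = 0.0179). NCAPG2 had 70.5 and 77.6 CPM against 55.5 and 52.3 CPM (-0.46, SE 0.148, adjusted p = 0.0407). They stood at 72.1% to 74.9% of wild type, and neither library overlapped wild type in any of the 3 genes.

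The 24 h calls depended on scaling: 3 subunits (SMC4, NCAPD2 and NCAPG) passed as lower under total-count scaling and 5 under abundance-dependent scaling, all 8 keeping a negative sign, and NCAPG2 was lost with RLE size factors (adjusted p = 0.0688). Total-count scaling set the median of all genes at 0.19, and the subunits' median lay 0.50 below it, as it did under the scaling used. Under abundance-dependent scaling this difference was smaller, -0.36 (-0.37 against -0.01). Of the genes called at 24 h, 2465 of 3484 were lower under the scaling used and 810 of 3287 under total-count scaling. Leaving out replicate 2 of wild type gave 5 calls, and leaving out replicate 1 or replicate 2 of the libraries labelled knockdown gave 4 each. The share of counts from retained-intron transcripts was 5.17% and 4.93% in wild type against 5.58% and 6.04% in the libraries labelled knockdown, and the mitochondrial share was 4.89% to 5.05% against 6.08% to 6.10%. Their part in the result was not tested.

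**Figure D1:**
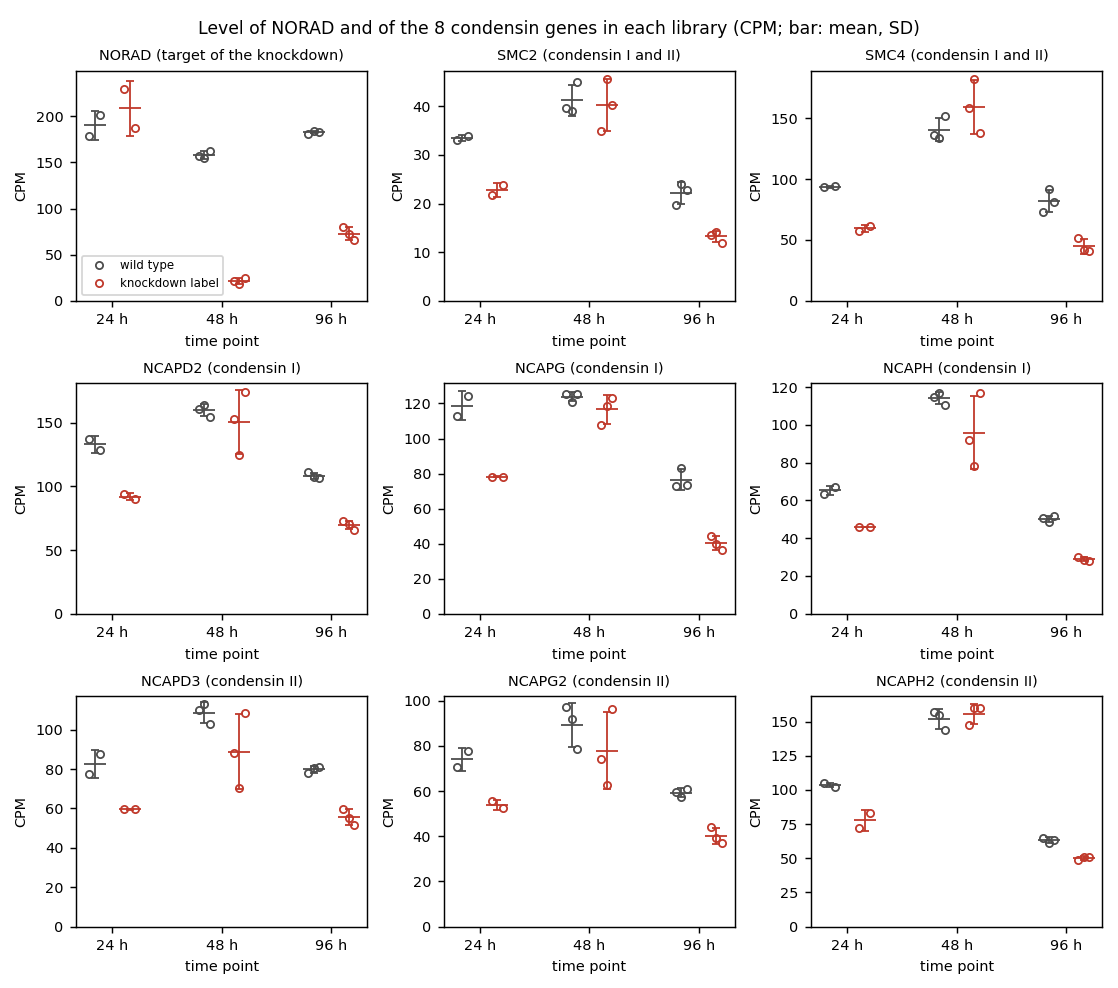
Level of NORAD and of each condensin gene (y axis, CPM) at the 3 time points (x axis) in wild type (grey) and in libraries labelled knockdown (red); circles are libraries, bars the mean and SD. The red points lie below the grey ones for all 8 condensin genes at 24 h and 96 h and overlap them at 48 h, whereas NORAD is low at 48 h and 96 h only.

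At 48 h, when NORAD was lowest, most subunits were close to wild type. The subunits' median log2 fold change was -0.09 against 0.06 over all genes. It turned to 0.05 under total-count, 0.03 under upper-quartile and 0.06 under abundance-dependent scaling, where all genes had 0.20, 0.18 and 0.02. The subunits' median minus that of all genes was -0.15 under the scaling used, total-count and upper-quartile scaling. Under abundance-dependent scaling this difference was 0.05. Only NCAPH and NCAPD3 passed the test, both as lower; 18.5% of all tested genes passed as lower and 33.2% in either direction. NCAPH had 115, 117 and 111 CPM in wild type and 92.1, 78.5 and 117 CPM in knockdown, a log2 fold change of -0.26 (SE 0.0959, adjusted p = 0.0457). NCAPD3 had 110.1, 113 and 103 CPM against 88.0, 70.6 and 108 CPM, a change of -0.29 (SE 0.107, adjusted p = 0.0449). In both genes replicate 3 of the knockdown lay among the wild-type values and replicate 2 was the lowest.

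The other 6 had log2 fold changes between -0.20 and 0.18 and did not pass. SMC4 had 136, 134 and 152 CPM in wild type and 158, 182 and 138 CPM in knockdown (0.18, SE 0.104, adjusted p = 0.194). NCAPG2 had 97.1, 92.2 and 78.6 CPM against 74.3, 62.8 and 96.5 CPM (-0.20, SE 0.119, adjusted p = 0.213). NCAPH2 had 157, 155 and 144 CPM against 147, 159.6 and 159.8 CPM (0.03, SE 0.0684, adjusted p = 0.730), and the groups of all 6 genes overlapped.

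Replicates 1 and 3 and replicates 2 and 3 of the knockdown at 48 h were far apart in NCAPH, NCAPD3 and NCAPG2. Without replicate 3, 5 subunits passed: NCAPH (-0.42), NCAPD3 (-0.45), NCAPG2 (-0.38) and NCAPD2 (-0.20) as lower and SMC4 (0.28) as higher. The share of all tested genes that passed at 48 h without that library is not given here. The F test between times called more of all genes without it, as the last paragraph gives. Leaving out any other library of the 16 left 0 or 1 subunit. Under total-count scaling neither NCAPH nor NCAPD3 passed, and SMC4 (0.32, adjusted p = 0.0408) and NCAPH2 (0.17, adjusted p = 0.0472) passed as higher instead. Of 19836 tested genes 6865 passed under that scaling, 2134 of them as lower, and the median of all genes was 0.20. The retained-intron share was 5.73%, 5.29% and 4.18% in knockdown replicates 1, 2 and 3 and 4.05% to 4.26% in wild type; its part in the result was not tested.

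At 96 h all 8 subunits were again lower in knockdown, where 5.15% of all tested genes passed as lower. The log2 fold changes ran from -0.93 to -0.33 with a median of -0.69 against -0.01 over all genes. In all 8 genes every knockdown library lay below every wild-type library, as it did in 15.6% of tested genes. All 8 calls held under each scaling, with DESeq2, without the filter, from protein_coding transcripts alone and without any single library.

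SMC4 had 73.0, 91.8 and 81.2 CPM in wild type and 51.8, 41.7 and 41.0 CPM in knockdown, a log2 fold change of -0.87 (SE 0.107, adjusted p = 1.86e-05). SMC2 had 19.7, 24.1 and 22.7 CPM against 13.5, 14.2 and 11.9 CPM, a change of -0.74 (SE 0.104, adjusted p = 5.46e-05). The 2 ATPases stood at 54.7% and 59.7% of their wild-type means.

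NCAPG fell most of the 8. It had 72.8, 83.3 and 73.4 CPM in wild type and 44.3, 40.0 and 36.2 CPM in knockdown, a log2 fold change of -0.93 (SE 0.0815, adjusted p = 3.05e-07). NCAPH had 50.5, 48.5 and 51.5 CPM against 29.9, 28.5 and 27.8 CPM (-0.80, SE 0.0990, adjusted p = 1.31e-05). NCAPD2 had 111, 108 and 106 CPM against 72.5, 70.7 and 65.9 CPM (-0.63, SE 0.0888, adjusted p = 5.61e-05), so the condensin I genes stood at 52.5% to 64.4% of wild type.

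The condensin II genes stood at 67.6% to 79.3%. NCAPG2 had 59.8, 57.2 and 61.1 CPM in wild type and 44.1, 39.2 and 37.1 CPM in knockdown (-0.56, SE 0.121, adjusted p = 0.00487). NCAPD3 had 77.9, 80.7 and 81.2 CPM against 59.9, 55.4 and 51.8 CPM (-0.52, SE 0.108, adjusted p = 0.00304). NCAPH2 changed least, from 65.1, 61.1 and 63.3 CPM to 48.4, 50.9 and 51.0 CPM (-0.33, SE 0.0698, adjusted p = 0.00276), after the largest fall of the 8 in wild type between 48 h and 96 h. Retained-intron shares at 96 h were 4.50% to 4.87% in knockdown and 4.46% to 4.62% in wild type.

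**Figure D2:**
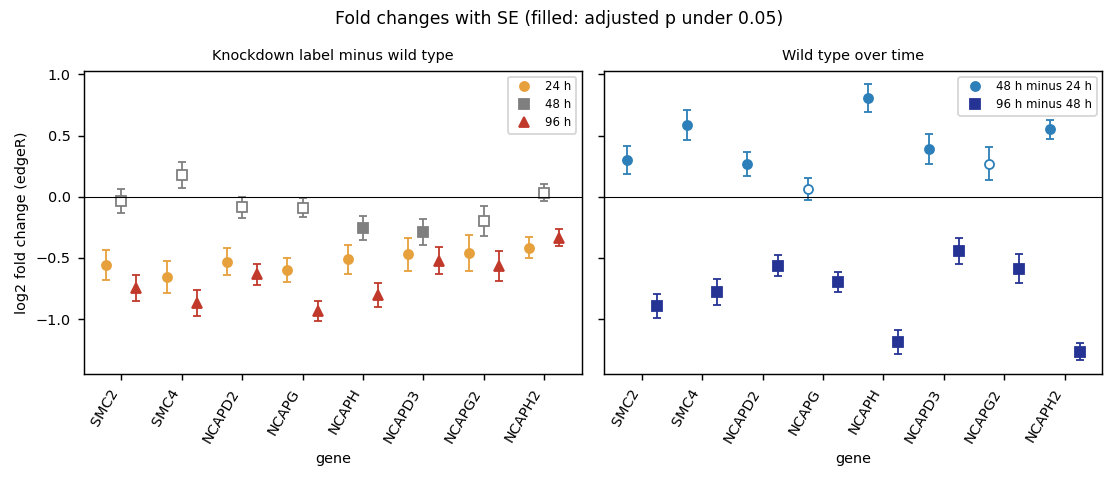
Log2 fold change from edgeR (y axis) of the 8 condensin genes (x axis) between libraries labelled knockdown and wild type at each time (left) and between times in wild type (right); bars are SEs and filled symbols passed at an adjusted p under 0.05. On the left the 24 h and 96 h symbols are all below 0 and filled, and 2 of the 8 symbols of 48 h are filled.

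The knockdown difference itself was compared between times. An F test over the 3 times passed for 6 of the 8 subunits, against 9.44% of all tested genes, and not for NCAPD3 (adjusted p = 0.543) or NCAPG2 (adjusted p = 0.327). The knockdown effect was higher at 48 h than at 24 h for SMC4 (by 0.83, SE 0.167, adjusted p = 0.0126), NCAPG (by 0.51, SE 0.126, adjusted p = 0.0389) and NCAPH2 (by 0.45, SE 0.109, adjusted p = 0.0373), 3 of the 8 where 1.07% of all tested genes passed as higher. From 48 h to 96 h the effect was lower for 6 of the 8, where 4.20% of all tested genes were, with the largest differences for SMC4 (-1.05, SE 0.149, adjusted p = 2.20e-04) and NCAPG (-0.84, SE 0.114, adjusted p = 9.53e-05). These contrasts share the 48 h libraries. The higher effect at 48 h was lost for all 3 genes under the replicate block and without any single 24 h library. For NCAPG and NCAPH2 it was also lost with RLE size factors (adjusted p = 0.0684 and 0.0727), with total-count scaling and without the filter. For NCAPG it was lost from protein_coding transcripts alone too (0.27, adjusted p = 0.398). The F test of NCAPH was lost when any library other than knockdown replicates 2 and 3 of 48 h was left out (adjusted p between 0.0510 and 0.0938). Without the filter the F tests of NCAPH and NCAPH2 were lost (adjusted p = 0.0551 and 0.0731). For SMC4 the F test was lost when protein_coding transcripts alone were counted (adjusted p = 0.150). From those transcripts both of its single differences were lost too. They became 0.36 (adjusted p = 0.551) at 48 h against 24 h and -0.62 (adjusted p = 0.0731) at 96 h against 48 h. Under abundance-dependent scaling its difference of 48 h against 24 h was also lost (0.84, adjusted p = 0.0602).

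Within each library the balance of the complexes was described as a log2 ratio of TPM (summed over the 3 specific subunits of each complex), on which library scaling has no effect; no test was made of these ratios. Condensin I genes over condensin II genes gave -0.07, -0.05 and -0.13 in wild type at 96 h and -0.36, -0.37 and -0.43 in knockdown, with no overlap. NCAPG over NCAPG2 gave 0.25, 0.54 and 0.22 in wild type at 96 h and -0.10, -0.03 and -0.17 in knockdown. NCAPH over NCAPH2 gave -0.55, -0.61 and -0.54 against -0.95, -1.02 and -1.04, so in both pairs the condensin I member was relatively lower in each knockdown library. NCAPD2 over NCAPD3 overlapped at 96 h (0.14 to 0.31 in wild type, 0.14 to 0.25 in knockdown), but from protein_coding transcripts alone it did not (0.015, 0.053 and 0.032 in wild type, -0.072, -0.096 and -0.17 in knockdown). At 24 h condensin I over II gave 0.02 and -0.06 in wild type and -0.13 and -0.22 in the libraries labelled knockdown, also without overlap, whereas protein_coding transcripts alone gave overlapping values (-0.34 and -0.40 against -0.38 and -0.47). At 48 h condensin I over II gave -0.114, -0.099 and -0.038 in wild type (mean -0.08 ± 0.0398, SD, n = 3). In knockdown the values were -0.157, -0.300 and -0.126 (mean -0.19 ± 0.0927, SD, n = 3). The groups did not overlap, but their nearest values lay close together. From protein_coding transcripts alone the nearest values were -0.268 in wild type and -0.272 in knockdown.

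**Figure D3:**
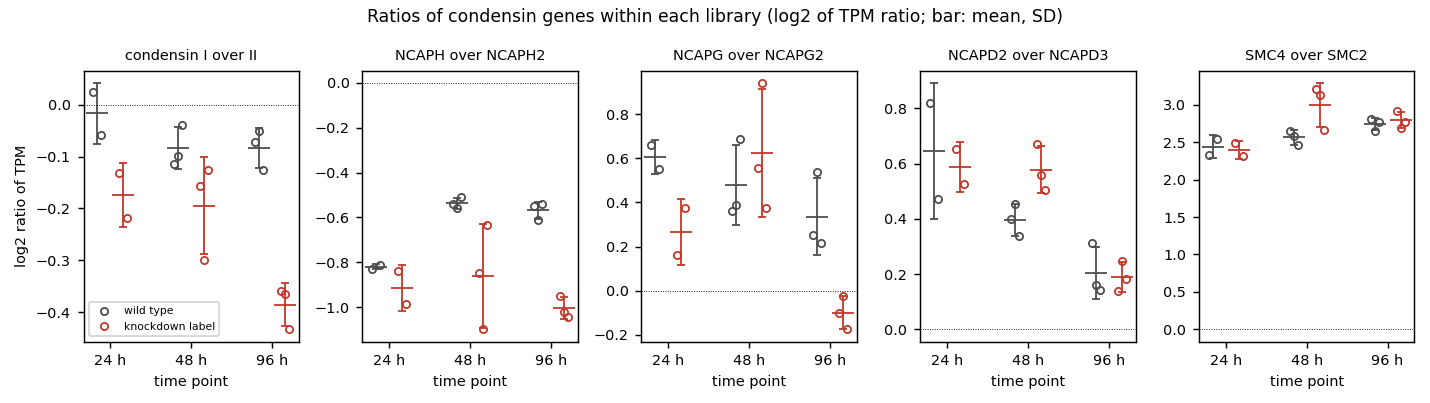
Log2 ratio of TPM between condensin genes within each library (y axis) at the 3 time points (x axis), wild type grey and libraries labelled knockdown red, with mean and SD. All transcripts of each gene are counted. At 96 h the red points of condensin I over II, NCAPH over NCAPH2 and NCAPG over NCAPG2 lie below the grey ones, and those of NCAPD2 over NCAPD3 and SMC4 over SMC2 overlap them.

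The transcripts behind these sums differed between genes. NCAPD3-214 carried a mean of 92.3% of NCAPD3 counts, NCAPD2-201 87.6%, NCAPH2-205 81.0% and NCAPH-201 78.1%, all protein_coding. In SMC4, by contrast, SMC4-203, a retained-intron transcript, carried 35.9%, more than the 28.8% of the protein_coding SMC4-210. NCAPG-205, annotated for nonsense-mediated decay, carried 34.3% of NCAPG counts, and NCAPD2-207, of the same class, had a mean share of 19.4% in wild type at 24 h, 0.236% at 48 h and 10.8% at 96 h.

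The knockdown libraries of 48 h differed most for SMC4. SMC4-211, a nonsense-mediated decay transcript, held 17.3% and 26.4% of SMC4 counts in knockdown replicates 1 and 2 but 1.93% in replicate 3, and 4.36%, 3.39% and 8.21% in wild type. SMC4-210 held 18.1%, 9.57% and 27.7% against 25.9%, 29.1% and 27.1%. From protein_coding transcripts alone the log2 fold change of SMC4 at 48 h was -0.27 (adjusted p = 0.170) in place of 0.18, so its sign at that time depended on the transcripts counted.

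**Figure D4:**
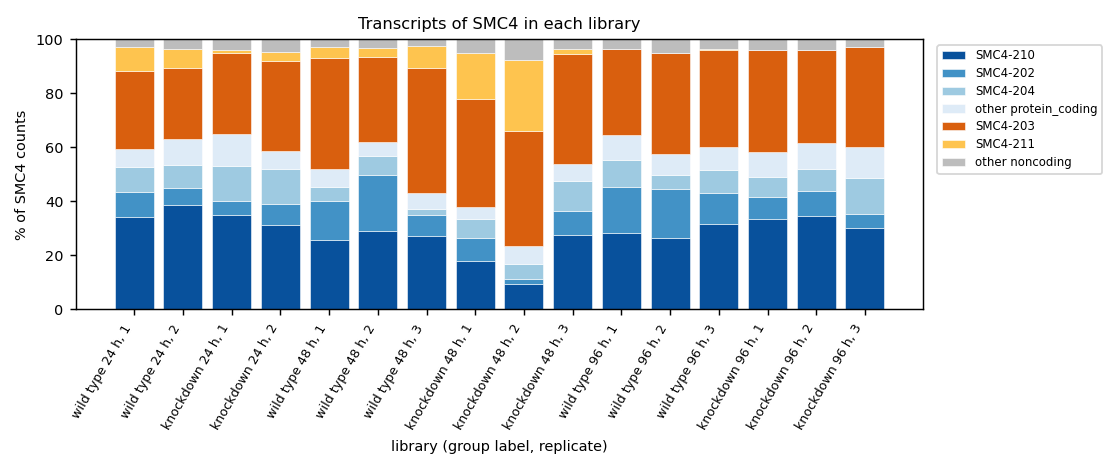
Share of SMC4 counts (y axis, %) given to each transcript in each library (x axis); blue shades are protein_coding, orange SMC4-203 (retained intron), yellow SMC4-211 (nonsense-mediated decay) and grey other noncoding transcripts. The yellow part reaches 17.3% and 26.4% in knockdown replicates 1 and 2 at 48 h and is at most 0.355% in every 96 h library.

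The edgeR usage test called 1 of the 8 genes, NCAPH2 at 48 h (adjusted p = 0.00500), where it called 1.63% of tested genes at 24 h, 4.33% at 48 h and 1.56% at 96 h. Because this test made too many false calls on simulated data, no change of usage is reported from it. The call rested on NCAPH2-209, which had 128, 122 and 8 counts in knockdown at 48 h and 5, 0 and 0 in wild type, or at most 2.09% of the gene. With limma on transcript log ratios, which kept its false calls low on simulated data, 0 of the 8 genes passed at any time, against 0.391% of tested genes at 24 h, 0.285% at 48 h and 0.0531% at 96 h.

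Most genes that work with condensin were lower too. Of 20 regulators and mitotic chromosome partners, 15 passed as lower at 24 h (median log2 fold change -0.47), 12 at 48 h (-0.24) and 15 at 96 h (-0.77), and none as higher. Over all tested genes 12.4%, 18.5% and 5.15% passed as lower at these times. CCNB1, the cyclin that activates CDK1 for mitotic entry, changed by -0.67, -0.42 and -0.95 at the 3 times. TOP2A, the topoisomerase that untangles chromosomes alongside condensin, changed by -0.98 at 96 h (adjusted p = 1.35e-07), AURKB, the kinase of the chromosomal passenger complex, by -0.78 and MKI67, a coat protein of mitotic chromosomes, by -0.91. At 48 h the count of this list depended on scaling: 3 passed as lower and 1 as higher under total-count scaling, and 4 and 1 under abundance-dependent scaling; at 24 h total-count scaling left 6.

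Replication and G1/S genes were low at every time: 12 of 13 passed as lower at each of the 3 times, with medians of -0.49, -0.47 and -0.55, against the 12.4%, 18.5% and 5.15% of all tested genes. MCM6, a subunit of the replicative helicase, changed by -0.55 at 24 h and -0.60 at 48 h. PCNA, the sliding clamp of DNA polymerases, changed by -0.64 at 48 h. The condensin subunits at 48 h had a median of -0.09 and ran from -0.29 (NCAPD3) to 0.18 (SMC4). The difference between this list and the subunits was not tested. Under total-count scaling 6 of 13 passed at 24 h and 11 at 48 h.

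Transcription factors of the cell cycle were mixed. Of 22, 6 passed as lower at 24 h, 9 as lower and 2 as higher at 48 h, and 7 as lower at 96 h. The shares of all tested genes that passed as lower were 12.4%, 18.5% and 5.15%, and 2928 of 19836 passed as higher at 48 h. FOXM1, an activator of mitotic genes, changed by -0.46 at 24 h and -0.83 at 96 h, and MYBL2, which joins the MuvB complex at CHR promoters, by -0.65 and -0.70. At 24 h the list's count under total-count scaling was 2 lower and 2 higher.

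The related SMC complexes were measured too. Of 13 cohesin genes, 5 passed as lower and 1 as higher at 24 h and at 48 h, and 6 as lower at 96 h (medians -0.31, -0.15 and -0.29); over all tested genes 12.4%, 18.5% and 5.15% passed as lower at the 3 times, and 1019, 2928 and 1062 of 19836 as higher. CDCA5, which protects cohesin from release, changed by -0.71 and ESCO2, a cohesin acetyltransferase of S phase, by -0.68 at 96 h. The 1 higher gene was MAU2, a partner of the cohesin loader (0.42 at 24 h, 0.38 at 48 h). Of 7 SMC5-SMC6 genes, 4, 4 and 2 passed as lower (medians -0.37, -0.30 and -0.24). With total-count scaling at 24 h, 1 cohesin gene was lower and 1 higher, and 1 SMC5-SMC6 gene was lower; the median of cohesin at 48 h turned to 0.05 under abundance-dependent scaling.

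**Figure D5:**
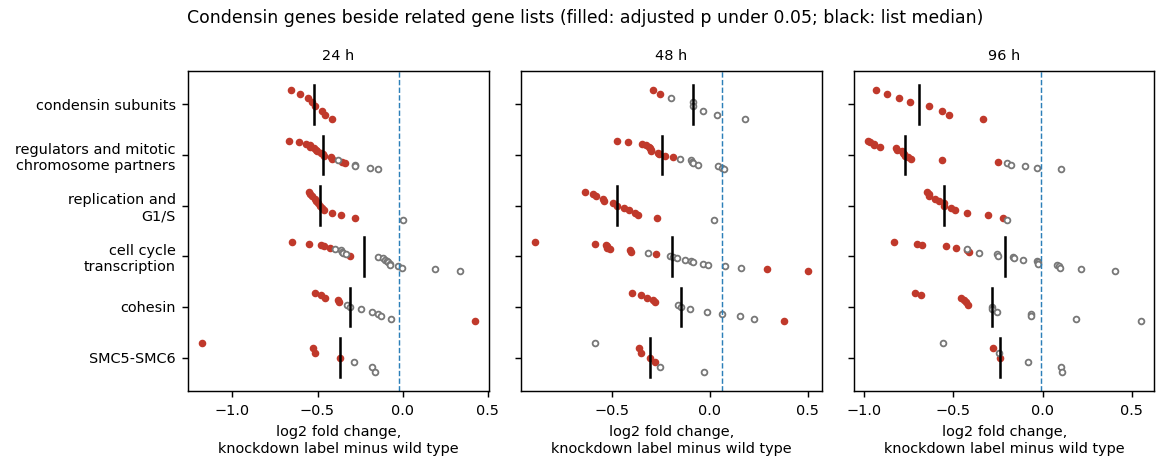
Log2 fold change (x axis) between libraries labelled knockdown and wild type for each gene of the condensin set and of 5 related lists (y axis) at the 3 times; filled points passed at an adjusted p under 0.05, black bars are list medians and the dashed line is the median of all tested genes. The condensin median lies at -0.52, -0.09 (above 0 under 3 other scalings) and -0.69, and that of replication genes at -0.49, -0.47 and -0.55.

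Finally, the genes most like each subunit over the 6 group means of log2 CPM, each centred on its own mean, were listed as a description, with the root mean square difference as the measure. NCAPH was closest to CDC45, FOXM1 and AURKB (0.04 to 0.05), SMC2 to ESPL1, KIFC1 and MKI67 (0.07 each) and SMC4 to SGO2, CCDC18 and SGO1 (0.10 to 0.12). NCAPG was closest to CEP128, MKI67 and SASS6 and NCAPD2 to KIF2C, KIF15 and MCM8. Of the condensin II genes, NCAPG2 was closest to WDR76, KIF2C and CKS2, NCAPD3 to DUT, POLD1 and SHMT2, and NCAPH2 to RAD51AP1, C17orf53 and MNS1. Among the subunits NCAPD2 and NCAPG2 were nearest each other (0.06, rank 3 and rank 2 among 19835 other genes), while the nearest subunit of NCAPD3, NCAPG2, ranked 200. Exons of 4 subunits share bases with genes on the opposite strand, with 33.1% of NCAPG exonic bases in LCORL and 18.5% of those of SMC4 in TRIM59; the sources used here do not say whether counting used strand.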

How the data were processed

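Polyadenylated RNA was measured in 16 libraries, grouped by title into wild type and NORAD knockdown at 24 h, 48 h and 96 h. Values in the authors' deposited table are estimated counts for each transcript, unnormalized. Kallisto, DESeq2 and hg19 appear without versions or settings, per the submitters' processing notes. Of 166096 transcripts, 156584 were matched by identifier to GENCODE 29 (GRCh38, whose coordinates are used for genes) and summed to 31496 genes; the rest held 2.75% to 3.40% of counts and were left out. Totals ranged from 28391784 to 51853876 counts, so the spread between libraries sets the precision.

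Rounded gene counts were filtered with filterByExpr, scaled by TMM (trimmed mean of M-values) and tested with edgeR 4.0.16 in R 4.3.3 (glmQLFit, robust, and glmQLFTest) with 1 coefficient for each of the 6 groups, which leaves 10 residual degrees of freedom. P-values were adjusted by Benjamini-Hochberg over all 19836 genes, with a threshold of 0.05. CPM use TMM library sizes and TPM use transcript lengths. No replicates looked like a library deposited again (chi-square per degree of freedom 7.35 to 52.8 within groups). Transcript usage was tested with diffSpliceDGE on 12784 genes and with limma 3.58.1 on log ratios (0.5 counts added, minimum transcript share 10% in some group, 15073 genes). Tests were first run on simulated data; the gene test and the limma usage test performed well there and diffSpliceDGE did not.

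The subunits, gene lists and sequence words were chosen with earlier results of these data known. From each list up to 4 genes with the lowest p at a time could be named, and for each subunit the 3 most similar genes; of the 21 listed partners 20 were matched. Results on 1 further gene list and its sequence word are not reported here. Other scalings, DESeq2 1.42.0, no filter, protein_coding transcripts only, a replicate block, single time points and leaving out each library were tried.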

Additional observations from a re-analysis of the deposited data

Results flagged for a closer look

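The difference between libraries labelled knockdown and wild type was not the same at 24 h, 48 h and 96 h for 6 subunits, by the F test of that difference in edgeR. The adjusted p was 4.51e-04 for SMC4 (log2 fold changes -0.65, 0.18 and -0.87 at the 3 times) and 2.99e-04 for NCAPG (-0.60, -0.09 and -0.93). It was 0.00693 for SMC2 (-0.56, -0.03 and -0.74) and 0.0149 for NCAPD2 (-0.53, -0.09 and -0.63). It was 0.0361 for NCAPH (-0.51, -0.26 and -0.80) and 0.0136 for NCAPH2 (-0.42, 0.03 and -0.33). The NCAPH value did not hold when any library other than knockdown replicates 2 and 3 of 48 h was left out (0.0510 to 0.0938), and that of NCAPH2 rose to 0.0501 without wild-type replicate 2 of 48 h. Without the filter on low counts the value was 0.0551 for NCAPH and 0.0731 for NCAPH2. In each of the 6 the value nearest 0 was that of 48 h, the time at which NORAD was lowest, while at 24 h NORAD itself was not lower than in wild type.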

How the results depend on the processing

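All 8 subunits passed as lower at 96 h under every alternative, as they did for wild type from 48 h to 96 h except under the replicate block, where NCAPD3 was lost. At 24 h the count of 8 became 3 under total-count scaling, 5 under abundance-dependent scaling, and 4 to 8 when a library was left out. At 48 h the count of 2 became 1 under abundance-dependent scaling and without the filter, and 0 under upper-quartile scaling, from protein_coding transcripts alone, with only the libraries of that time and under the replicate block; it was 0 to 5 when a library was left out, with 5 only without knockdown replicate 3 of 48 h. The 3 subunits whose effect was higher at 48 h than at 24 h became 1 with RLE size factors, total-count scaling, no filter or protein_coding transcripts alone, and 0 to 4 when a library was left out (0 without any single library of 24 h or wild-type replicate 2 of 48 h, 1 without wild-type replicate 1 or 3 of 48 h or 1 or 3 of 96 h or knockdown replicate 2 of 96 h). For wild type from 24 h to 48 h the count of 6 became 4 under total-count and upper-quartile scaling. It became 5 under abundance-dependent scaling and from protein_coding transcripts alone, and 3 under the replicate block. It ranged from 3 to 7 when a library was left out.

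The replicate block also took the F test between times from 6 to 3 and the effect at 48 h against 24 h from 3 to 0. The F test passed for 4 subunits without the filter and for 5 from protein_coding transcripts alone. The 6 subunits whose effect was lower at 96 h than at 48 h became 5 under the replicate block, without the filter and from protein_coding transcripts alone. They became 7 under upper-quartile and abundance-dependent scaling. The replicate numbers were not treated as pairs, since none of 8 same-numbered pairs correlated above 0.1 (range -0.26 to 0.06) and 1 library correlated best with its own number. The usage count of 1 became 0 with limma and 0 with only transcripts of at least 5% of their gene, a setting chosen after seeing the data. The condensin I over II ratio in wild type at 48 h moved from -0.08 to -0.22 with protein_coding transcripts alone.

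Signs turned only for values that did not pass. At 48 h, SMC2 became 0.10 under total-count, 0.086 under upper-quartile and 0.063 under abundance-dependent scaling and 0.014 from protein_coding transcripts, and ranged from -0.13 to 0.062 when a library was left out. NCAPD2 became 0.052, 0.026 and 0.079 under those 3 scalings and ranged from -0.20 to 0.033 when a library was left out, and NCAPG became 0.050, 0.029 and 0.067. SMC4 became -0.27 from protein_coding transcripts, and NCAPH2 ranged from -0.0037 to 0.073 when a library was left out. In wild type from 24 h to 48 h NCAPG became -0.0054 and -0.00014 under total-count and upper-quartile scaling. The cause was not tested in any of these cases. Over all genes, the number called at 24 h fell from 3484 to between 1500 and 2084 when a library of that time was left out, and the F test called 5035 in place of 1872 without knockdown replicate 3 of 48 h and 2876 with DESeq2.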
